A study of Mus musculus with 6 samples.

Results

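Genes of the lysosome were followed in macrophages of the cerebrospinal fluid. They were chosen by name as rows of the deposited expression table: 21 hydrolases, 4 lumenal proteins that are not enzymes themselves, 8 membrane proteins, 12 subunits or partners of the V-ATPase and 3 transcription factors, together 48 of the 34652 genes in the table. All 48 symbols were present. The first population, called resident macrophages here and dLAM in the labels, was sorted as GFP+ cells lacking Ly6C and bearing CD45, CD11b and F4/80. The second, called monocyte-macrophages (Mono-MΦ in the labels), was a mixture of GFP- cells with CD45, CD11b and F4/80 and of GFP- cells with low F4/80 and with Ly6C. Both came from the cerebrospinal fluid of Cx3cr1CreER:mTmG mice that had received tamoxifen and, 12 days before collection, LLC-LeptoM cells, derived from Lewis lung carcinoma and adapted to the leptomeninges. In these mice the Cx3cr1 locus drives an inducible Cre, which turns on membrane GFP, so the GFP gate reports on past Cre activity and not on origin as such. There were 3 libraries of each population, and the labels do not say whether they came from separate mice or from pooled animals, so p-values cover only the variation among these libraries, and it may be technical.

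Lysosomes are the acidic compartments in which a macrophage breaks down what it has taken up. Soluble hydrolases each cut 1 kind of bond in glycans, lipids or proteins, and several need a small activator protein to present their lipid substrate. The V-ATPase, a rotary proton pump with a cytosolic V1 sector and a membrane-bound V0 sector, acidifies the lumen, and heavily glycosylated membrane proteins line the inner face. TFEB, TFE3 and MITF, related helix-loop-helix factors, bind E-box motifs in the promoters of many of these genes and are held in the cytosol by phosphorylation, so their activity cannot be read from their RNA.

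Expression is given in FPKM, fragments per kilobase of gene scaled to the depth of the library, as the authors deposited it. From the smallest values in each column the libraries were estimated to hold between 1.231e+07 and 1.702e+07 fragments. Differences are log2 fold changes on the log2(FPKM + 1) scale, resident macrophages minus monocyte-macrophages, tested with limma over 11317 genes, and a gene was called at a Benjamini-Hochberg adjusted p under 0.05. All 9 border macrophage markers and all 8 microglia markers were called higher in resident macrophages, and 9 of 10 classical monocyte markers were called lower. Border macrophage markers summed to 243 to 271 FPKM in resident macrophages, against 15.9 to 35.9 FPKM in monocyte-macrophages, and microglia markers to 243 to 414 against 63.9 to 88.4 FPKM. Classical monocyte markers were not absent from the resident libraries: they summed to 1235 to 1637 FPKM there, against 4541 to 11792 FPKM. The largest single part of that resident sum was S100a9, the marker not called, at 715, 559 and 585 FPKM. Of the genes behind the gates, Adgre1 (F4/80) and Cx3cr1 were called higher and Ly6c2 lower, and Ptprc (CD45) and Itgam (CD11b) were not called. The call of Adgre1 (limma adjusted p = 0.04) held in 9 of 17 alternative settings of the processing, and those of Cx3cr1 and Ly6c2 in all 17. In the same resident libraries, markers of T cells were higher (summed FPKM 177 to 219, against 5.91 to 27.7 in monocyte-macrophages), as were those of dendritic cells (106 to 169 against 13 to 17.2) and of mast cells and basophils (31.8 to 69.3 against 0.708 to 1.96). The same direction held for the summed markers of carcinoma cells (26.9 to 31.6 against 1.74 to 2.92), mostly Cdh1 and Epcam with Krt19 and Cldn4 at or near 0, of B and plasma cells (18.5 to 31.8 against 1.49 to 4.69), of NK cells (10.1 to 17.9 against 1.66 to 3.49) and of fibroblasts and endothelium (6.86 to 8.95 against 2.72 to 3.08). Markers of neutrophils summed to 507 to 727 FPKM in resident macrophages and to 1042, 3489 and 5670 FPKM in monocyte-macrophage libraries 1 to 3. RNA of Y-linked genes, which marks male cells in a library, summed to 23.5 FPKM in resident library 3 and 26.1 FPKM in monocyte-macrophage library 2, and to 3.31 to 5.49 FPKM in the other 4 libraries. The part of these other cells and of the Y-linked split in the lysosomal values was not tested, and in bulk RNA fewer cells of a type and less RNA per cell cannot be told apart.

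The lysosome genes differed between the populations by small steps and in both directions. Of the 47 members tested, 12 were called higher in resident macrophages (25.5%) and 3 lower (6.38%), against a background of 19.9% higher and 10.6% lower among all genes tested. Taken in either direction, 15 members were called (31.9%), close to the 30.5% of all genes. The median log2 fold change of the members was 0.19, beside 0.06 for all genes tested. Naglu was the only called member with a change of at least 1 on the log2 scale, a size that 1311 of all tested genes (11.6%) reached together with a call. The median size of the called changes was 0.69 for members and 0.81 for all called genes. Among the tested members, 19 had all 3 resident libraries above all 3 monocyte-macrophage libraries (29.3% of all genes did) and 6 had them all below (16.9% of all genes), so that 46.2% of all genes did not overlap. Without resident macrophage library 1, or without library 2, 7 members were called higher. Calls fell over the whole table as well, to 1647 and 1590 genes higher, from 2249 in the main setting. Median-of-ratios scaling, a rescaling by the typical gene, called 9 members higher and 5 lower, beside 1798 and 1664 of all genes.

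**Figure D1:**
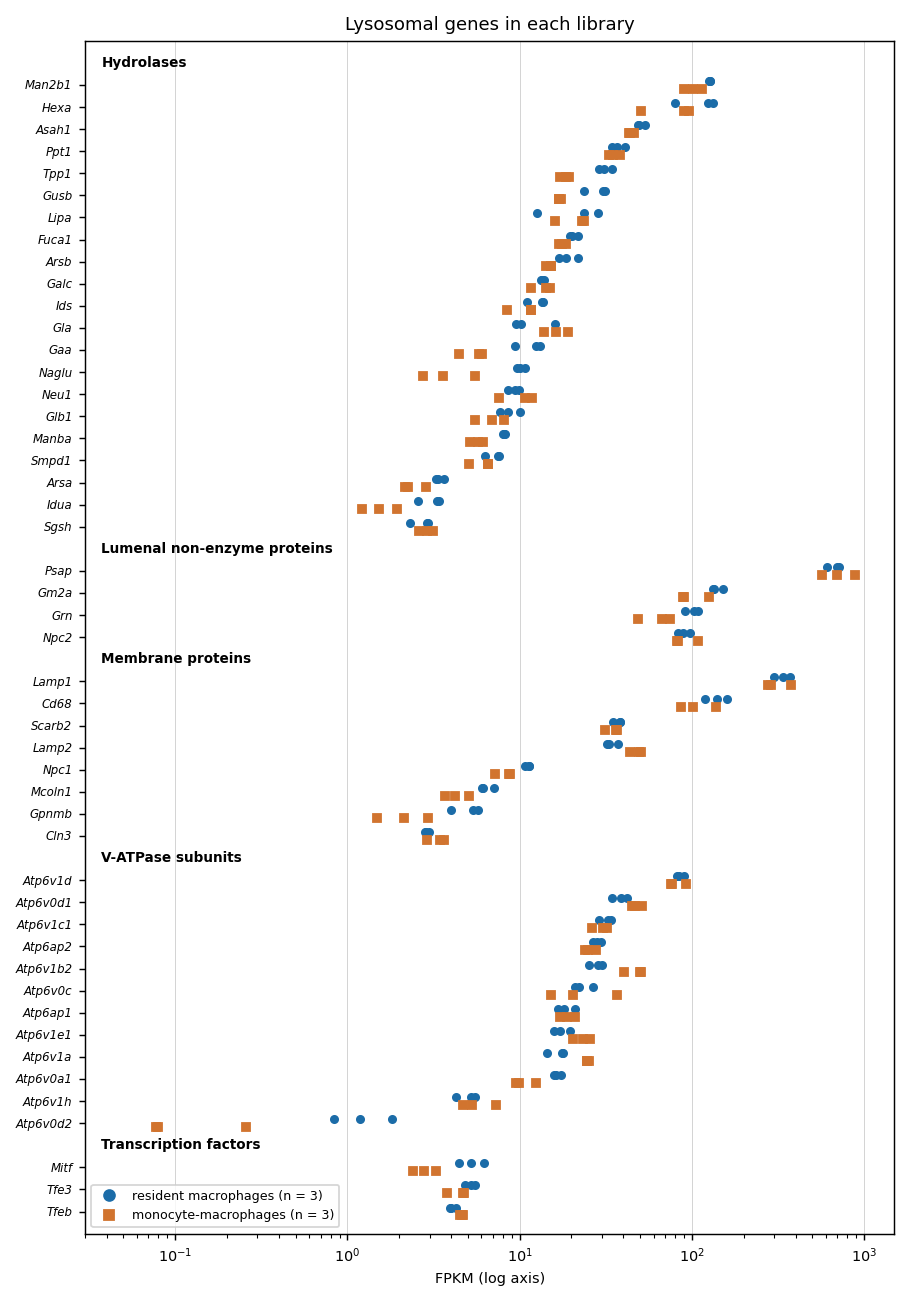
FPKM of all 48 lysosomal genes in each library on a log axis, grouped by class and ordered by the resident macrophage mean; circles are the 3 resident macrophage libraries and squares the 3 monocyte-macrophage libraries. Psap and Lamp1 had the highest means among the members, Atp6v0d2 the lowest, and for 22 of the 48 genes the populations overlap.

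**Figure D2:**
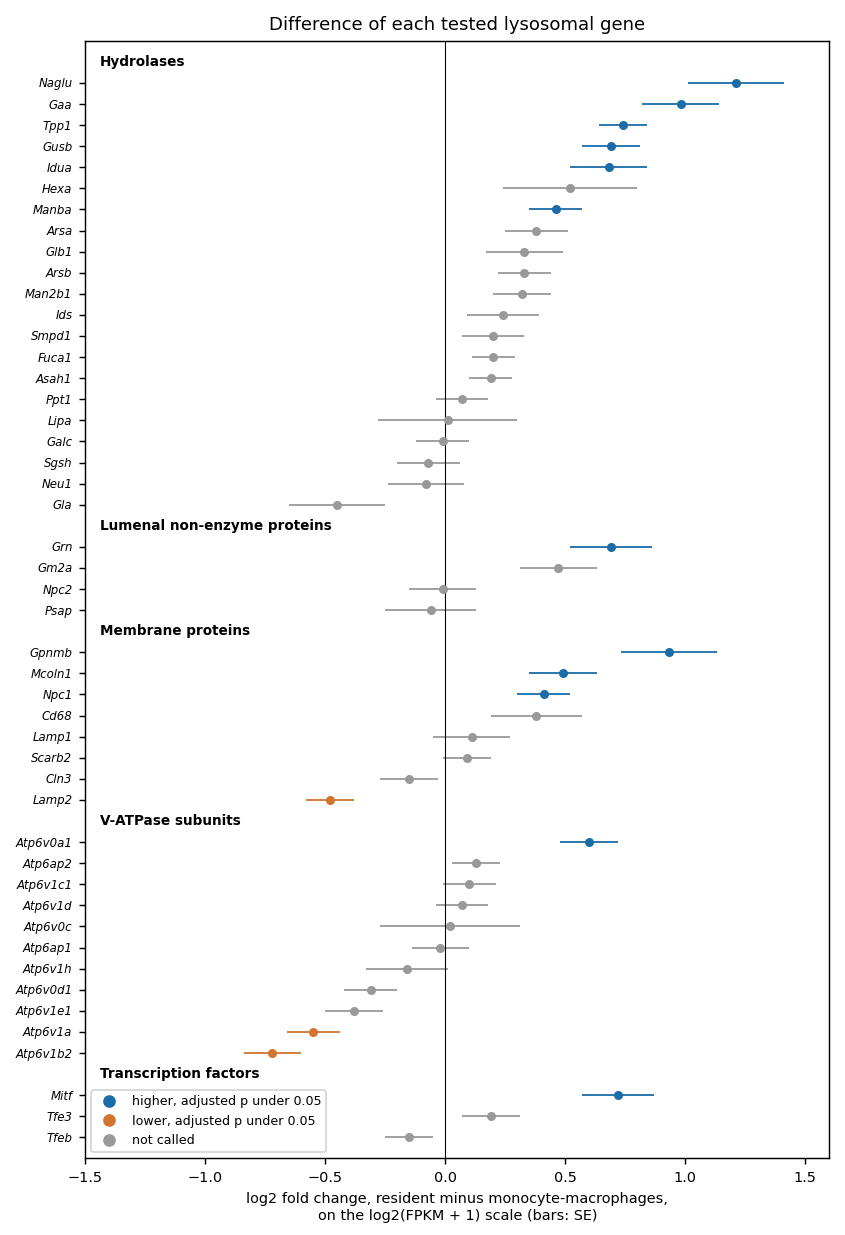
Log2 fold change with its SE, computed as resident minus monocyte-macrophages from log2(FPKM + 1), for the 47 members tested, ordered within each class. The 12 called higher range up to 1.21 for Naglu and the 3 called lower, Lamp2, Atp6v1a and Atp6v1b2, reach -0.72.

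Of 21 hydrolases tested, 6 were called higher, 0 lower and 15 did not pass (median 0.32, range -0.45 to 1.21). The share called was 28.6%, close to the 30.5% of all genes, among which higher calls (19.9%) also outnumbered lower ones (10.6%). Of the called hydrolases, 4, namely Naglu, Gaa, Tpp1 and Gusb, held under all 17 alternative settings. At an unadjusted limma p under 0.05, 0 hydrolases were lower; Gla came closest (unadjusted p = 0.059) and was called lower in 3 alternatives. The summed level of the class was 570, 572 and 511 FPKM in the resident macrophages, against 465, 406 and 435 FPKM in the monocyte-macrophages (551 ± 34.6 against 435 ± 29.3, SD, n = 3). Every resident library thus lay above every monocyte-macrophage library in this sum. Hexa and Man2b1, the most abundant hydrolases, made up part of that gap; without them, a choice made after the values were seen, the sum was 303 to 318 FPKM in resident macrophages and 253 to 255 FPKM in monocyte-macrophages.

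Among the enzymes that degrade glycosaminoglycans, the long sugar chains of proteoglycans, Naglu, Gusb and Idua rose. Naglu (chromosome 11, 101070012 to 101077672, mm10), which removes N-acetylglucosamine from heparan sulfate, was at 10.8, 10.1 and 9.61 FPKM in resident macrophages, against 3.57, 5.48 and 2.76 FPKM in monocyte-macrophages. The lowest resident library was well above the highest monocyte-macrophage library. Its means differed 2.58-fold (10.2 ± 0.579 against 3.94 ± 1.39 FPKM, SD, n = 3), a log2 fold change of 1.21 (SE 0.20, limma adjusted p = 0.003). Gusb (chromosome 5, 129989011 to 130003049), the beta-glucuronidase, was at 31.2, 30.4 and 23.7 FPKM in resident macrophages, against 17.3, 17.0 and 16.9 FPKM in monocyte-macrophages. The monocyte-macrophage libraries were nearly equal for Gusb, while resident library 3 was lower than the other two (log2 fold change 0.69, SE 0.12, limma adjusted p = 0.0043). Idua, which removes iduronate, was low in both populations, at 3.10 ± 0.468 against 1.56 ± 0.373 FPKM (SD, n = 3; change of 0.68 on the log2 scale, adjusted p = 0.015). The call of Idua ended without resident library 1 (adjusted p = 0.059), without resident library 2 (adjusted p = 0.063) and with quantile normalization (adjusted p = 0.085), and 6.3% of its exon bases are shared with Slc26a1 on the other strand. The sulfatases of the same pathway did not pass: Arsb had a log2 fold change of 0.33, Ids of 0.24 and Sgsh, the heparan sulfamidase, of -0.07. Arsb shares 39.9% and Sgsh 21.6% of their exon bases with genes on the opposite strand, and the strand handling of the counting is not given.

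Gaa and Tpp1, which act on glycogen and on proteins, rose as well. Gaa (chromosome 11, 119267887 to 119285454), the acid glucosidase that digests glycogen in the lysosome, was at 12.5, 13.1 and 9.46 FPKM in resident macrophages, against 6.07, 5.79 and 4.44 FPKM in monocyte-macrophages. Library 3 was the lowest of each population, and the groups did not overlap (2.15-fold by means; log2 fold change 0.98, SE 0.16, adjusted p = 0.0032). Tpp1 (chromosome 7, 105744811 to 105752235), a peptidase that trims tripeptides from protein ends, was at 34.5, 30.7 and 28.8 FPKM in resident macrophages, against 18.5, 19.3 and 17.2 FPKM in monocyte-macrophages. That 1.71-fold difference had the smallest p of all members (log2 fold change 0.74, SE 0.10, adjusted p = 0.0015). Ppt1, which strips fatty acids from proteins, had a log2 fold change of 0.07 and did not pass.

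The glycoprotein enzymes followed in part. Manba, the beta-mannosidase, was at 8.12 ± 0.127 FPKM in resident macrophages and 5.66 ± 0.501 FPKM in monocyte-macrophages (SD, n = 3; log2 fold change 0.46, adjusted p = 0.015). That call ended without resident library 1, 2 or 3 in turn (adjusted p = 0.06, 0.054 and 0.051) and among the 4 libraries that held less Y-linked RNA (adjusted p = 0.09). Man2b1, the alpha-mannosidase, was abundant and even among resident libraries, at 127, 126 and 128 FPKM, against 115, 102 and 89.8 FPKM in monocyte-macrophages. Its groups did not overlap, yet the change of 0.32 did not pass (adjusted p = 0.075), and it passed without monocyte-macrophage library 1 (adjusted p = 0.038). Fuca1, a fucosidase, had a log2 fold change of 0.20 and the sialidase Neu1 of -0.08; neither passed.

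None of the 7 sphingolipid enzymes in the set passed. Hexa, the alpha chain of beta-hexosaminidase, was at 124, 132 and 79.9 FPKM in resident macrophages, against 96.4, 50.5 and 90.0 FPKM in monocyte-macrophages. Its libraries varied by more than the group difference of 0.52 (adjusted p = 0.21), with resident library 3 and monocyte-macrophage library 2 the low ones; these 2 also held the most Y-linked RNA, and with a term for that RNA Hexa passed (adjusted p = 0.0069). Gla, the alpha-galactosidase, went the other way, at 9.47, 10.2 and 16.1 FPKM in resident macrophages, against 13.8, 19.0 and 16.2 FPKM in monocyte-macrophages. Resident library 3 overlapped with the monocyte-macrophages and the change of -0.45 was not called (adjusted p = 0.14), but without that library it was -0.67 (adjusted p = 0.024). Arsa, the sulfatide sulfatase, had a log2 fold change of 0.38, Glb1 (beta-galactosidase) of 0.33, Smpd1 (acid sphingomyelinase) of 0.20, Asah1 (acid ceramidase) of 0.19 and Galc (galactosylceramidase) of -0.01. Lipa, the acid lipase that releases cholesterol and fatty acids from lipoproteins, had a log2 fold change of 0.01 and overlapping groups, at 12.7, 28.7 and 23.8 FPKM in resident macrophages and 23.7, 16.0 and 22.9 FPKM in monocyte-macrophages.

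Of the 4 lumenal proteins that are not hydrolases, Grn was the only one called (25%, beside 30.5% of all genes). Grn encodes progranulin, a secreted precursor that is cut into granulins in lysosomes. It was at 109, 103 and 91.2 FPKM in resident macrophages, against 67.4, 48.4 and 74.3 FPKM in monocyte-macrophages. All resident libraries were above all monocyte-macrophage libraries (1.6-fold by means; log2 fold change 0.69, SE 0.17, adjusted p = 0.019), but the call ended without resident library 1 (adjusted p = 0.07), without resident library 2 (adjusted p = 0.066) and with median-of-ratios scaling (adjusted p = 0.054). Gm2a, the activator that presents a ganglioside to hexosaminidase, stood just outside the threshold at 0.47 (adjusted p = 0.056), with 140 ± 10.8 FPKM in resident macrophages and 101 ± 21.3 FPKM in monocyte-macrophages (SD, n = 3). Psap, the precursor of the saposins, was the most abundant member at 675 ± 57.3 against 716 ± 156 FPKM (SD, n = 3), and the cholesterol carrier Npc2 was at 90.1 ± 7.55 against 91.3 ± 14.9 FPKM (SD, n = 3). Neither of these 2 passed (log2 fold changes -0.06 and -0.01).

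Of 8 membrane proteins, 3 were called higher, 1 lower and 4 did not pass (median 0.24). These calls were 37.5% higher and 12.5% lower, against 19.9% and 10.6% of all genes, in a class of only 8. Gpnmb (chromosome 6, 49036546 to 49070929), a glycoprotein known from foam cells and lipid-laden macrophages, was low but separated, at 5.77, 3.98 and 5.36 FPKM in resident macrophages, against 1.49, 2.95 and 2.13 FPKM in monocyte-macrophages. The means differed 2.3-fold (log2 fold change 0.93, SE 0.20, adjusted p = 0.011), and the gene stayed past the threshold in all 16 alternatives that tested it. Gpnmb is also made by pigment cells. Of their 5 markers, Pmel was at 0.0317, 0.191 and 0.454 FPKM in resident macrophages, against 0.206, 0.434 and 0.165 FPKM in monocyte-macrophages. Mlana, Tyr, Dct and Tyrp1 were listed at 0 in all 6 libraries. Markers of other cells moved in the same direction as Gpnmb, those of dendritic cells among them (106 to 169 against 13 to 17.2 FPKM). Their part in the Gpnmb value was not tested. Mcoln1, the lysosomal calcium channel TRPML1, was at 6.10, 6.03 and 7.07 FPKM in resident macrophages and 4.19, 5.06 and 3.67 FPKM in monocyte-macrophages, and Npc1, which moves cholesterol out of the lysosome, at 11.3, 10.8 and 11.4 against 8.74, 8.65 and 7.22 FPKM. Both sets of libraries were fully separated, and both changes were small (0.49 with adjusted p = 0.031 and 0.41 with adjusted p = 0.025). The call of Mcoln1 held in 7 of 17 alternatives and ended without any single library except monocyte-macrophage library 2. The call of Npc1 held in 9 of 17 and ended without any of the 3 resident libraries or monocyte-macrophage library 3; the adjusted p of the lost calls lay between 0.051 and 0.11.

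Of the 2 major glycoproteins of the lysosomal membrane, Lamp2 was called lower and Lamp1 was not called, though the difference between them was not tested. Lamp2 (chromosome X, 38401357 to 38456454), which also serves in chaperone-mediated autophagy, was at 37.5, 32.1 and 33.2 FPKM in resident macrophages, against 44.0, 49.6 and 50.8 FPKM in monocyte-macrophages. All resident libraries lay below all monocyte-macrophage libraries (1.41-fold lower in resident macrophages; log2 fold change -0.48, SE 0.10, adjusted p = 0.011); without resident library 2 it missed the threshold at an adjusted p of 0.05, and it was 0.093 among the 4 libraries that held less Y-linked RNA. Lamp1 was at 373, 338 and 298 FPKM in resident macrophages, against 377, 275 and 289 FPKM in monocyte-macrophages, with overlap (log2 fold change 0.11, adjusted p = 0.66). Cd68, the macrosialin used to stain macrophages, was at 160, 140 and 119 FPKM in resident macrophages, against 138, 101 and 86.5 FPKM in monocyte-macrophages. Its groups overlapped through monocyte-macrophage library 1 and the change of 0.38 did not pass (adjusted p = 0.18), though it did without that library (adjusted p = 0.04). Scarb2, the receptor that carries beta-glucocerebrosidase to lysosomes, had a log2 fold change of 0.09 and Cln3 of -0.15. Lamp1 shares 9.31% of its exon bases, Cln3 7.65%, Hexa 12.8% and Arsa 18.8% with neighbouring genes, each with its largest partner on the opposite strand. Glb1 shares 5.49%, with Tmppe on the same strand as its largest partner. Part of the fragments of these genes could belong to the neighbours.

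Of 11 V-ATPase genes tested, 1 was called higher, 2 lower and 8 did not pass, with a median of -0.02. The share called, 27.3%, was close to the 30.5% of all genes. Both lower genes encode the catalytic ring of the V1 sector, where ATP is cut. Atp6v1a (chromosome 16, 44085402 to 44139705), the catalytic A subunit, was at 17.8, 14.5 and 17.7 FPKM in resident macrophages, against 24.7, 24.6 and 25.2 FPKM in monocyte-macrophages. The monocyte-macrophage libraries were almost equal and all above the resident ones (1.49-fold lower in resident macrophages; log2 fold change -0.55, SE 0.11, adjusted p = 0.0065). Atp6v1b2 (chromosome 8, 69088646 to 69113711), its partner B2, was at 30.0, 28.6 and 25.4 FPKM in resident macrophages, against 50.3, 40.3 and 50.7 FPKM in monocyte-macrophages. It had the largest fall among members (1.68-fold; log2 fold change -0.72, SE 0.12, adjusted p = 0.0038). Both calls held in all 17 alternatives. The summed neutrophil markers were also lower in resident macrophages, and their part in these values was not tested.

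**Figure D3:**
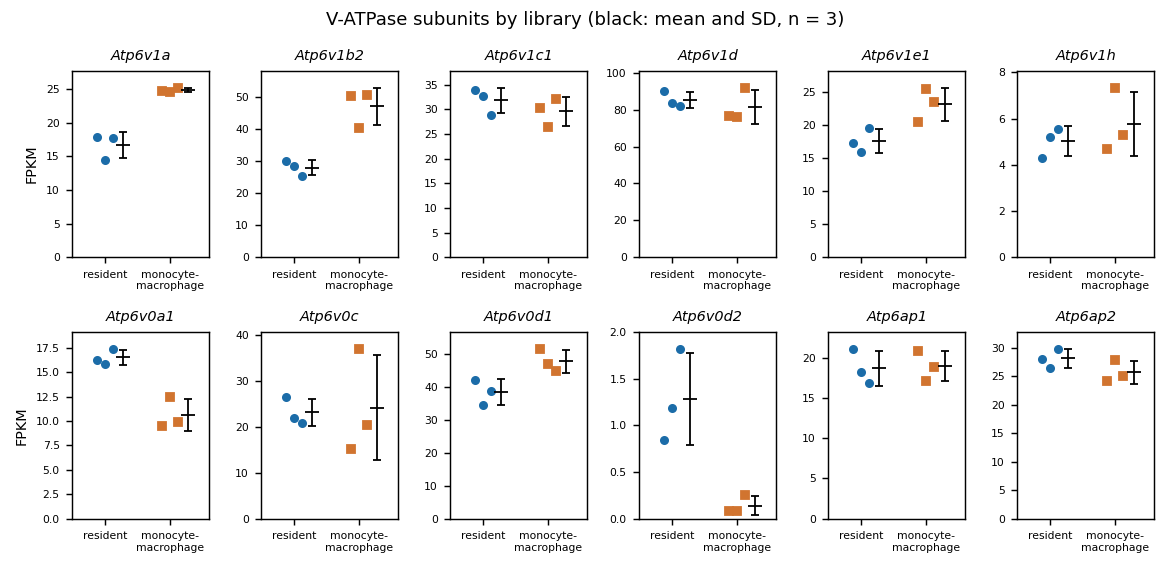
FPKM of the 12 V-ATPase genes in the 3 resident macrophage libraries (left in each panel) and the 3 monocyte-macrophage libraries (right), with mean and SD in black; each panel has its own axis from 0. Atp6v1a, Atp6v1b2, Atp6v1e1 and Atp6v0d1 had all resident libraries below, Atp6v0a1 and Atp6v0d2 all above.

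The other V1 genes did not pass. Atp6v1e1, part of the stator stalk, was lower in every resident library (17.6 ± 1.88 against 23.1 ± 2.54 FPKM, SD, n = 3) and lay at the edge of the threshold (log2 fold change -0.38, adjusted p = 0.051); it was called in 5 of 17 alternatives, with median-of-ratios scaling (adjusted p = 0.014) among them. Atp6v1h, the regulatory H subunit, had a log2 fold change of -0.16, Atp6v1c1 of 0.10 and Atp6v1d, part of the central rotor and at 85.4 ± 4.25 against 81.5 ± 9.09 FPKM (SD, n = 3) the most abundant V-ATPase member, of 0.07. The 6 V1 genes together summed to 193, 181 and 179 FPKM in resident macrophages and to 207, 200 and 229 FPKM in monocyte-macrophages.

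In the V0 sector the a1 subunit rose. Atp6v0a1, an isoform of the large subunit that lines the proton path, was at 16.3, 15.9 and 17.4 FPKM in resident macrophages, against 9.47, 12.5 and 9.87 FPKM in monocyte-macrophages. No library of either population overlapped (1.56-fold; log2 fold change 0.60, SE 0.12, adjusted p = 0.0084), and the call held in all 17 alternatives. Atp6v0c, the proteolipid of the rotating ring, varied widely within groups, at 26.5, 22 and 20.9 FPKM in resident macrophages, against 15.2, 37.0 and 20.4 FPKM in monocyte-macrophages. Monocyte-macrophage library 2 was the highest of all for Atp6v0c and library 1 the lowest (log2 fold change 0.02, adjusted p = 0.96), and the gene has 2 annotated pseudogenes, so its level is uncertain. The accessory genes Atp6ap1 and Atp6ap2 had log2 fold changes of -0.02 and 0.13.

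The d subunit joins V0 to the central stalk and comes in a widespread and a restricted form. Atp6v0d2 (chromosome 4, 19876841 to 19922605), the form known from osteoclasts and some macrophages, was the only member not tested, because it reached 1 FPKM in fewer than 3 libraries. It was at 0.838, 1.19 and 1.82 FPKM in resident macrophages, about 33.7, 39.6 and 61.4 fragments, and at 0.0799, 0.0778 and 0.257 FPKM in monocyte-macrophages, about 2.97, 2.97 and 11.9 fragments. All resident libraries were above all monocyte-macrophage libraries, and the monocyte-macrophage values rest on very few fragments. Atp6v0d1, the widespread form, was at 42.2, 34.4 and 38.8 FPKM in resident macrophages, against 51.6, 47.0 and 44.8 FPKM in monocyte-macrophages (log2 fold change -0.31, adjusted p = 0.071; called lower with median-of-ratios scaling, adjusted p = 0.039). Of the 2 forms together, Atp6v0d2 made up 1.95%, 3.33% and 4.49% in resident macrophages and 0.155%, 0.165% and 0.571% in monocyte-macrophages.

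Of the 3 transcription factors, Mitf alone was called (33.3%, beside 30.5% of all genes). Mitf (chromosome 6, 97807052 to 98021349), known from osteoclasts, mast cells and pigment cells, was at 5.22, 6.23 and 4.45 FPKM in resident macrophages, against 3.28, 2.39 and 2.80 FPKM in monocyte-macrophages. The groups were separate (1.88-fold; log2 fold change 0.72, SE 0.15, adjusted p = 0.01), and the call held in all 16 alternatives that tested it. Mast cell RNA moved in the same direction: Cpa3, a mast cell protease, was at 17.7, 10.7 and 6.9 FPKM in resident macrophages and listed at 0 in the 3 monocyte-macrophage libraries, and its part in the Mitf value was not tested. Tfeb was at 3.93, 4.02 and 4.25 FPKM in resident macrophages, against 4.67, 4.62 and 4.52 FPKM in monocyte-macrophages. Its resident libraries were all slightly lower, but the change of -0.15 did not pass (adjusted p = 0.34). Tfe3 was at 4.83, 5.51 and 5.23 FPKM in resident macrophages, against 4.78, 4.68 and 3.81 FPKM in monocyte-macrophages, a change of 0.19 that did not pass either (adjusted p = 0.28).

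Promoter sequence shows where these factors could bind in principle. RefSeq windows of 300 bases on GRCm38.p6, 250 before to 50 after the start site, were at hand for 42 of the 48 members; Asah1, Atp6v0d2, Atp6v1b2, Atp6v1c1, Atp6v1h and Npc1 had none. The letters TCACGTGA, the centre of the CLEAR motif bound by TFEB, and the shorter E-box CACGTG, which lies inside it, were searched; both read the same on either strand. TCACGTGA stood in the windows of 5 member genes (11.9%), against 1.12% of all 27025 genes with a window and 2.42% of those tested for expression. CACGTG stood in 11 member genes (26.2%), against 8.09% of all genes and 12.2% of tested genes. The 5 windows with TCACGTGA and 3 with CACGTG only, those of the most increased hydrolases and of Lamp1, are shown with up to 25 bases on each side of the upstream-most match of that motif; the match is in capitals, and each reads 5′ to 3′ on the gene's strand.
Gla (chrX:134601201-134601255, - strand): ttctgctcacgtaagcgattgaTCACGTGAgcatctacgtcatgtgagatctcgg
Cln3 (chr7:126583326-126583383, - strand): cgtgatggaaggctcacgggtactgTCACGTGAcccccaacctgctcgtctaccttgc
Mcoln1 (chr8:3500448-3500505, + strand): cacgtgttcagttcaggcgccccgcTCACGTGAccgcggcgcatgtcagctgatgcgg
Atp6v0d1 (chr8:105566036-105566093, - strand): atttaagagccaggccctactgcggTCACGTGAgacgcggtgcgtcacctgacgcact
Atp6v1a (chr16:44139359-44139416, - strand): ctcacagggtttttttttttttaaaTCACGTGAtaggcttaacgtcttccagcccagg
Naglu (chr11:101069996-101070051, + strand): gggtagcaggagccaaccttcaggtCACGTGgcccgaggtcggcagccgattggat
Gaa (chr11:119267798-119267853, + strand): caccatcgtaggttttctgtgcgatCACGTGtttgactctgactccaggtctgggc
Lamp1 (chr8:13159075-13159130, + strand): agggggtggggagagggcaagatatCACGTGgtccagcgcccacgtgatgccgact

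Genes with a match were found among those called higher, called lower and not called. Counted from the start site, the TCACGTGA match began at base -228 in Gla, -122 in Cln3, -46 in Mcoln1, -4 in Atp6v0d1 and -132 in Atp6v1a, and Gla held 2 such matches. Of these 5 genes, Mcoln1 was called higher and Atp6v1a lower, and the others were not called (log2 fold changes -0.45 for Gla, -0.15 for Cln3 and -0.31 for Atp6v0d1). Lamp1 held 4 CACGTG matches and had a log2 fold change of 0.11. Of the 11 genes with CACGTG, 3 were higher and 1 lower (median 0.11), and of the 31 without it 8 were higher and 1 lower (median 0.20). Among all genes tested, 19.9% were higher and 10.6% lower. The hydrolases with CACGTG that are not shown, Glb1, Sgsh and Arsa, were not called (log2 fold changes 0.33, -0.07 and 0.38). A match is a description of the sequence and not evidence of binding.

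Other genes of the compartment, or related to it, were taken from lists beside the members, and some of them changed by more than any member. Of 29 tested further hydrolases and lumenal proteins, 13 were higher and 4 lower (median 0.47). These were 44.8% and 13.8%, against 19.9% and 10.6% of all genes, in a list chosen with earlier results of these data known. The list is broad and also holds related genes that are not lysosomal hydrolases, such as Gba2, Sumf1, Manbal and Smpdl3b. Acp5, the tartrate-resistant acid phosphatase of osteoclasts and tissue macrophages, was at 15.9, 16.1 and 14.3 FPKM in resident macrophages, against 3.72, 1.72 and 4.15 FPKM in monocyte-macrophages (log2 fold change 2.02, adjusted p = 0.00068). Acp2, another acid phosphatase, rose by 1.36. Smpdl3a, a phosphodiesterase related to acid sphingomyelinase, fell by 1.75 on the log2 scale, to 36.9 ± 4.36 FPKM in resident macrophages against 127 ± 16.7 FPKM in monocyte-macrophages (SD, n = 3; adjusted p = 0.00013). Hgsnat, a membrane enzyme counted in this list though not a hydrolase, acetylates heparan sulfate ends in the step before Naglu. It fell by 0.93, and Ggh, a folate hydrolase, by 0.90. The calls of these 5 genes held in all alternatives.

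**Figure D4:**
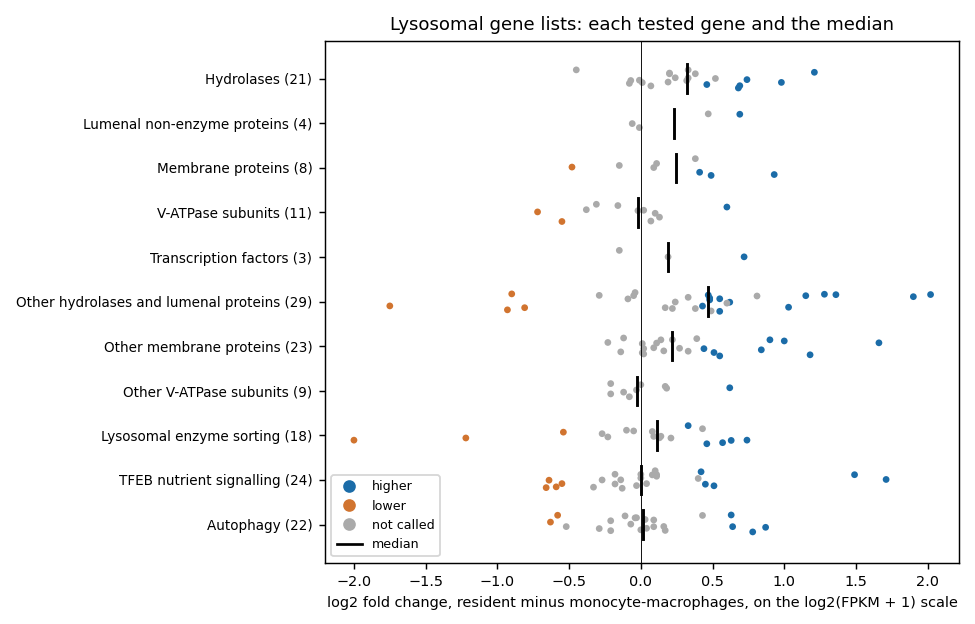
Log2 fold change, taken on log2(FPKM + 1) as resident minus monocyte-macrophages, of each tested gene in the 5 member classes and in 6 further lists of lysosome-related genes, with the median as a black bar and the number tested in brackets. The further hydrolases spread from -1.75 to 2.02, wider than the members (-0.72 to 1.21).

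Of 23 tested further membrane proteins, 8 were higher and 0 lower by limma, also 0 lower at an unadjusted p under 0.05 (median 0.22, lowest change -0.23). The share called was 34.8%, beside 30.5% of all genes, of which 19.9% were higher. The tetraspanin gene Cd63 was at 74.3, 47.9 and 55.4 FPKM in resident macrophages, against 8.71, 25.9 and 24.4 FPKM in monocyte-macrophages (log2 fold change 1.66, adjusted p = 0.015), a call that ended without resident library 1 (adjusted p = 0.059). Mfsd12, a lysosomal cysteine importer, rose by 1.18 and Slc29a3, a nucleoside transporter, rose as well (adjusted p = 0.00074). Of 9 tested further V-ATPase genes, Atp6v0a2 alone was called (11.1%, against 30.5% of all genes), higher by 0.62 (adjusted p = 0.0098). It did not pass among the 4 libraries that held less Y-linked RNA (adjusted p = 0.062). Tcirg1, the a3 isoform, was at 28.6 ± 3.51 against 25.2 ± 1.07 FPKM (SD, n = 3), and was not called; its difference from the a1 and a2 genes was not tested.

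The genes that deliver enzymes to lysosomes went both ways, with 5 of 18 higher and 3 lower (median 0.11). These were 27.8% and 16.7%, against 19.9% and 10.6% of all genes. Sort1, which encodes the sorting receptor sortilin, was at 3.81, 3.57 and 3.98 FPKM in resident macrophages, against 18.2, 16.4 and 19.8 FPKM in monocyte-macrophages (4.79-fold lower in resident macrophages; SE of the log2 fold change 0.11, adjusted p = 3.2e-05). Lyst, a regulator of lysosome size, fell by 1.22 and the adaptor subunit gene Ap1m1 by 0.54. Gnptg and Igf2r, of the mannose phosphate route, and the adaptor gene Gga2 were higher by 0.74, 0.63 and 0.57. None of those 3 calls was stable: Igf2r lost its call without any of 5 single libraries, all but monocyte-macrophage library 2, Gnptg without the same 5, and Gga2 without resident library 2 or 3.

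Of 24 tested genes of the signalling around TFEB, 5 were higher and 4 lower (median 0.00). The share called was 37.5%, beside 30.5% of all genes. Bhlhe41 and Bhlhe40, E-box binding repressors, rose by 1.71 and 1.49; Bhlhe41 was at 3.29, 2.24 and 1.75 FPKM in resident macrophages, against 0.0201, 0.0781 and a listed 0 FPKM in monocyte-macrophages. Tfec, the fourth factor of the family, fell by 0.66, at 3.45, 2.82 and 3.63 against 5.03, 6.08 and 6.32 FPKM (adjusted p = 0.0084). Mtor was higher by 0.51 (lost without resident library 2 or 3), and Lamtor4 and Mxi1 were lower by 0.64 and 0.59. The call of Lamtor4 ended without resident library 1 or 2, and that of Mxi1 without resident library 2 or 3 or monocyte-macrophage library 2 or 3. Of 22 autophagy genes, 4 were higher and 2 lower (median 0.01), and the share called, 27.3%, was close to the 30.5% of all genes. Tecpr1, which tethers autophagosomes to lysosomes, rose by 0.87, Gabarapl1, an autophagosome coat gene, by 0.78 and the kinase gene Ulk2 by 0.64, while the lipid scramblase gene Atg9a fell by 0.63 and Atg7 by 0.58. The call of Atg7 ended without resident library 1 (adjusted p = 0.051).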

How the data were processed

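Bulk RNA-seq of 3 resident macrophage and 3 monocyte-macrophage libraries, sorted from cerebrospinal fluid on day 12, was used. The authors deposited FPKM per gene symbol in 1 table; per the labels' protocols, RNA was sequenced as 150 bp pairs, and per the submitters' processing notes FastQC, HISAT2, featureCounts and mm10 were used. Tool versions, annotation and strand setting were not given in the sources used here. Whole reads could not be recovered: 40.7% to 44.3% of low values came out whole within 0.02. Counts were therefore not tested.

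Genes with at least 1 FPKM in at least 3 libraries were tested on log2(FPKM + 1) with limma 3.58.1 (R 4.3.3, trend on the mean, Benjamini-Hochberg adjustment over all tested genes). The script was tested on simulated data. Alternatives were the pseudocount, filters, TPM scale, median-of-ratios and quantile scaling, no trend, the replicate block, Y-linked RNA and each library left out. Values per library are given for up to 4 called members of each class with the largest changes in each direction, the transcription factors, Lamp1, Cd68, Atp6v0c and the untested member; values for Hexa, Gla, Lipa, Man2b1 and Atp6v0d1 were added after they were seen. Of each further list, up to 3 called genes per direction are named; Tcirg1 was added, and 1 gene that the rule names is not reported here. Members and lists were chosen with earlier results of these data known. Positions and exon overlaps come from GENCODE M21, to which 94.3% of symbols matched, and promoters from RefSeq. The series text speaks of 10 samples; 6 were used here. Tables and plots were made with pandas 2.3.3, matplotlib 3.10.9 and numpy 2.4.6 under Python 3.11.15.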

Additional observations from a re-analysis of the deposited data

How the results depend on the processing

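Among called members, no change reversed direction under any of the 17 alternatives. Naglu, Gaa, Tpp1, Gusb, Atp6v0a1, Atp6v1a and Atp6v1b2 kept their calls in all of them, and Gpnmb and Mitf in the 16 that tested them. Leaving out single libraries gave 7 to 15 higher members (main 12) and 2 to 4 lower members (main 3). Over the whole table it gave 1590 to 2096 higher genes (main 2249) and 780 to 1220 lower genes (main 1204). Median-of-ratios scaling called 9 members higher and 5 lower (median 0.08), with 1798 genes higher and 1664 lower in all and a median of -0.03 for all genes; quantile normalization called 11 and 4, with 1834 and 1642 in all and a median of -0.04, against 0.06 in the main setting. A filter at 5 FPKM left 1247 genes higher and a member median of 0.13, and those with less Y-linked RNA, 4 libraries, gave 1480 higher and 780 lower. With a term for Y-linked RNA 5 members were lower. The cause of these shifts was not tested. With the replicate block 11 members were higher and 3 lower, and 1860 genes were higher and 999 lower in all. Library numbers did not pair (correlations of deviations 0.189, -0.147 and -0.0887), and not every library correlated best with its own number. The highest correlation, 0.386, was between resident library 3 and monocyte-macrophage library 2, the libraries with the most Y-linked RNA.

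Reversed signs occurred among uncalled members near 0. With median-of-ratios scaling Lipa was -0.10, Ppt1 -0.04, Lamp1 -0.01, Scarb2 -0.02, Atp6v0c -0.09, Atp6v1c1 -0.01 and Atp6v1d -0.04. With quantile normalization Lipa was -0.01, Npc2 0.09, Psap 0.06 and Atp6v0c -0.01. On the TPM scale Galc and Npc2 were 0.04 and Atp6ap1 0.03, and without Rpph1, a short RNA with 8.61% to 15.8% of all FPKM, 0.01, 0.01 and 0.00. Among the 4 libraries that held less Y-linked RNA, Galc was 0.04 and Lipa -0.27. Leaving out single libraries gave ranges of -0.11 to 0.06 for Galc, -0.12 to 0.02 for Sgsh, -0.22 to 0.33 for Lipa, -0.25 to 0.04 for Neu1, -0.08 to 0.12 for Npc2, -0.22 to 0.10 for Psap, -0.25 to 0.37 for Atp6v0c and -0.10 to 0.05 for Atp6ap1. With 3 libraries a group and unknown animal origin, small changes such as those of Mcoln1 and Npc1 lie at the limit of what can be called.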
